A study of Mus musculus with 46 samples.

Results

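The proteasome genes were taken as all symbols in the deposited count tables that begin with Psma, Psmb, Psmc, Psmd or Psme followed by a digit. Of 10397 symbols listed once in the DMSO tables, 41 followed this naming rule. Of these, 39 are named proteasome genes, namely 7 alpha and 7 beta subunits of the core, the immune beta subunit Psmb10, 6 ATPases and 3 further subunits of the base, 8 lid subunits, 3 chaperones of base assembly and 4 activators. The other two were Psmc3ip, which shares only the name, and Psme2b, an intronless copy of Psme2. The rule used no measured value.

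Ribosome footprints (RiboSeq) and poly(A) RNA (RNAseq) were sequenced from EPP2 cells, a murine pancreatic cancer line with a doxycycline-inducible Cas9 (iCas9) that was derived from 1 cell. Ctu1 iKO cells carried a pair of sgRNAs against Ctu1, the thiouridylase subunit that modifies tRNA wobble uridines. In the sample labels, doxycycline was given at 300 ng/mL for 4 days. Control cells are labelled WT. Whether a given control library carried guides against non-coding regions or received no doxycycline is not given in the sources used here, so the effects of Cas9 cutting, doxycycline and the loss of Ctu1 cannot be told apart. Both kinds of cells were treated for 2 h with DMSO or with 300 nM torin 1, an inhibitor of the mTOR kinase. For each assay there were 6 control samples in DMSO, 6 control samples in torin 1, 5 Ctu1 iKO samples in DMSO and 6 Ctu1 iKO samples in torin 1. Both assays of a replicate were made from the same sample, which gave 46 libraries. The study's methods name fewer biologically independent replicates, grown on consecutive days, than the labels number, while elsewhere it counts the footprint samples as independent experiments. Samples are therefore not called separate cultures here, and SDs and p-values measure only the spread between numbered samples, part of which may be technical.

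The proteasome is the protease that removes most ubiquitinated proteins. Its core is a barrel of alpha rings, which gate the entry, and beta rings, 3 of whose subunits cut peptide bonds. A regulatory particle caps the barrel: ATPases of the base unfold substrates, further base subunits bind ubiquitin, and the lid removes it. Other caps, the activators, open the gate without ATP, and those built from Psme1 and Psme2 belong, together with the immune beta subunits, to antigen processing and respond to interferon. mTORC1 is known to set the synthesis of ribosomal proteins and to influence proteasome levels, while Ctu1 acts on the tRNAs that decode AAA, CAA and GAA codons.

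Footprint libraries held between 4602092 and 52907878 counts in genes, with a median of 15387951. RNAseq libraries held between 129881946 and 325494304 counts, all of them even numbers. Values below are CPM (counts scaled to a common library size) after TMM scaling, and changes are log2 fold changes. Calls rest on edgeR's quasi-likelihood test with p-values adjusted by Benjamini and Hochberg over all genes tested, at a threshold of 0.05. Such values are relative to all other genes of a library, and in bulk samples fewer cells and less RNA per cell cannot be told apart.

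The libraries were compared with their labels before any result was drawn. Each library was projected on the axis of gene changes from DMSO to torin 1 in control replicates 1 to 3, scaled so that their DMSO mean is 0 and their torin 1 mean is 1, with libraries of the same replicate number left out of the axis. Ctu1 iKO libraries were placed relative to the mean of Ctu1 iKO replicates 1 to 3 in DMSO. A library left out in this way need not stand at 0 or 1. All footprint libraries followed their labels, with DMSO libraries from -0.09 to 0.24 and torin 1 libraries from 0.34 to 0.68. Of the RNAseq libraries, 6 went against theirs, while torin 1 replicates 1 to 4 stood between 0.75 and 1.09. Replicates 4 and 5 labelled as Ctu1 iKO in DMSO stood at 0.84 and 0.77. Those labelled control torin 1 replicates 5 and 6 stood at 0.19 and 0.22, and those labelled Ctu1 iKO torin 1 replicates 5 and 6 at 0.17 and 0.26. Transcript tests therefore used replicates 1 to 3, and values with all replicates are given where they differ. As a check of the treatment, footprints of the ribosomal protein gene Rps25 changed by -0.86 in control and -1.43 in Ctu1 iKO cells under torin 1 (edgeR quasi-likelihood test, adjusted p = 8.79e-06 and 4.43e-08).

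Levels of Ctu1 RNA and footprints did not separate the genotypes by the test, and such levels do not measure whether the gene was edited. The paper reports editing of the Ctu1 locus in Ctu1 iKO cells by genomic PCR. From its ribosome profiling it also reports more ribosomes with AAA codons in the A site. Neither was examined here. In DMSO, Ctu1 transcripts of replicates 1 to 3 were 4.76, 4.54 and 4.57 CPM in control and 4.57, 4.37 and 4.96 CPM in Ctu1 iKO cells, so the groups overlapped. The lowest values, 3.28 and 3.10 CPM, came from replicates 4 and 5 labelled Ctu1 iKO in DMSO, which went against their labels on the axis. Its footprints ranged from 1.58 to 3.43 CPM and from 1.30 to 2.28 CPM. The footprint change of -0.54 (SE 0.29) did not pass it (edgeR, adjusted p = 0.353). Of the fixed markers of other cell types, none of 4 acinar and none of 2 endothelial markers was listed, and 1 of 3 leukocyte markers, Cd68, was present at 1.70 CPM. The cells had 5 of 8 epithelial and 5 of 5 mesenchymal markers. The summed transcripts of the mesenchymal markers were 2623 to 2814 CPM in control and 3243 to 3543 CPM in Ctu1 iKO cells in DMSO (replicates 1 to 3), and those of the epithelial markers 295 to 312 CPM and 321 to 402 CPM. Both sums, made up mostly of Vim and of Krt8 and Krt18, were higher in all 3 Ctu1 iKO libraries. Their part in the Ctu1 iKO results below was not tested.

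Proteasome genes were among the strongly translated genes of these cells, and their levels differed widely even between subunits that share 1 ring. Levels were compared per length, as footprint CPM per 100 codons of the coding sequence, in the 6 control DMSO libraries. Of the 39 genes, 37 stood above the median of 5.44 over 9588 genes. The highest was the alpha subunit Psma3 with 308 ± 35.2 (SD, n = 6), followed by the beta subunit Psmb1 with 206 ± 12.8 and the lid subunit Psmd11 with 158 ± 8.84. The range of each of these 3 lay above that of the next gene. The lowest were the immune subunit Psmb10 with 3.25 ± 0.33, the large activator Psme4 with 4.12 ± 0.49 and the assembly chaperone Psmd5 with 8.28 ± 1.09.

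The alpha subunits had the highest and the chaperones the lowest class median, while the medians of beta subunits, base and lid lay close together. The median density was 98.6 for the alpha subunits, 56.7 for the beta subunits, 53.6 for the base, 53.3 for the lid, 31.4 for the activators and 10.3 for the chaperones, which leave the particle before it is complete. The ranges of alpha (72.5 to 308), beta (44.9 to 206), base (28.6 to 108) and lid subunits (23.1 to 158) overlapped, and classes were not tested against each other. Within a class the highest member exceeded the lowest by 6.87-fold in the core, 3.78-fold in the base and 6.84-fold in the lid. In the order of all 39 genes, the ranges of 28 of 38 neighbouring pairs overlapped, so the order is resolved only coarsely. The catalytic beta subunits Psmb5, Psmb7 and Psmb6 lay close together at 64.3 ± 8.05, 56.7 ± 4.62 and 47.4 ± 1.58 (SD, n = 6). Of the immune and tissue variants, Psma8, Psmb8, Psmb9 and Psmb11 were not listed, and the tables hold only genes that reached 100 footprints in at least 1 library. Psmb10, the remaining immune subunit, was present at 7.81 to 9.97 footprint CPM.

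**Figure D1:**
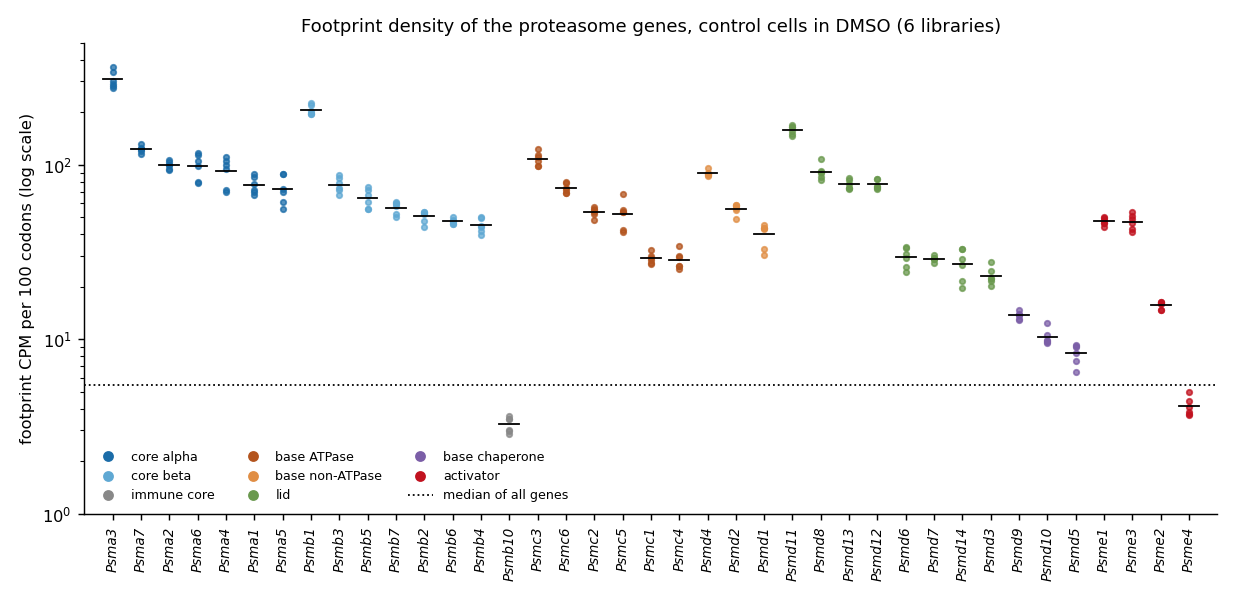
Footprint density (CPM per 100 codons, log scale) of the 39 proteasome genes in control cells in DMSO; points are the 6 libraries, bars their mean, colours the classes, and the dotted line is the median of all genes at 5.44. Core, base and lid subunits lie well above the line, while Psmb10 and Psme4 lie below it.

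The coding sequences of the proteasome genes held somewhat more of the codons read by Ctu1-modified tRNAs than the median gene. AAA, CAA and GAA codons together made up a median of 7.08% of codons in the 39 genes and 6.13% over 9588 genes, and 24 of the 39 stood above the median of all genes. GAA alone exceeded its own median over all genes in 30 of 39. The rings of the core differed in this respect. The alpha subunits held a median of 9.13%, with 12.6% in Psma4, and the beta subunits held 4.48%, with 2.65% in Psmb5. The share ran with base composition: the median GC content of the coding sequence was 44.9% in the alpha and 54.4% in the beta subunits, against 52.2% over all genes.

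Across the 39 genes, the share of these codons ran against the change in Ctu1 iKO cells. Spearman's rho between the codon share and the log2 change was -0.45 for footprints in DMSO and -0.52 for footprints in torin 1, over 39 genes each, while over all 9588 genes it was -0.01 and -0.03. Within replicates 1 and 2 rho was -0.56 in DMSO and -0.45 in torin 1, and within replicates 3 to 6 it was -0.21 and -0.38. In DMSO, rho was -0.48 for transcripts and -0.38 for translational efficiency (the footprint change beyond the transcript change), and -0.03 and -0.11 over all genes. For GC content rho was of similar size, with 0.40 and 0.46 for footprints in DMSO and torin 1, and 0.51 and 0.34 for transcripts and translational efficiency in DMSO. Within the 39 genes codon share and GC content had a rho of -0.81. The points share their libraries and base composition, so the correlations are a description of these genes.

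**Figure D2:**
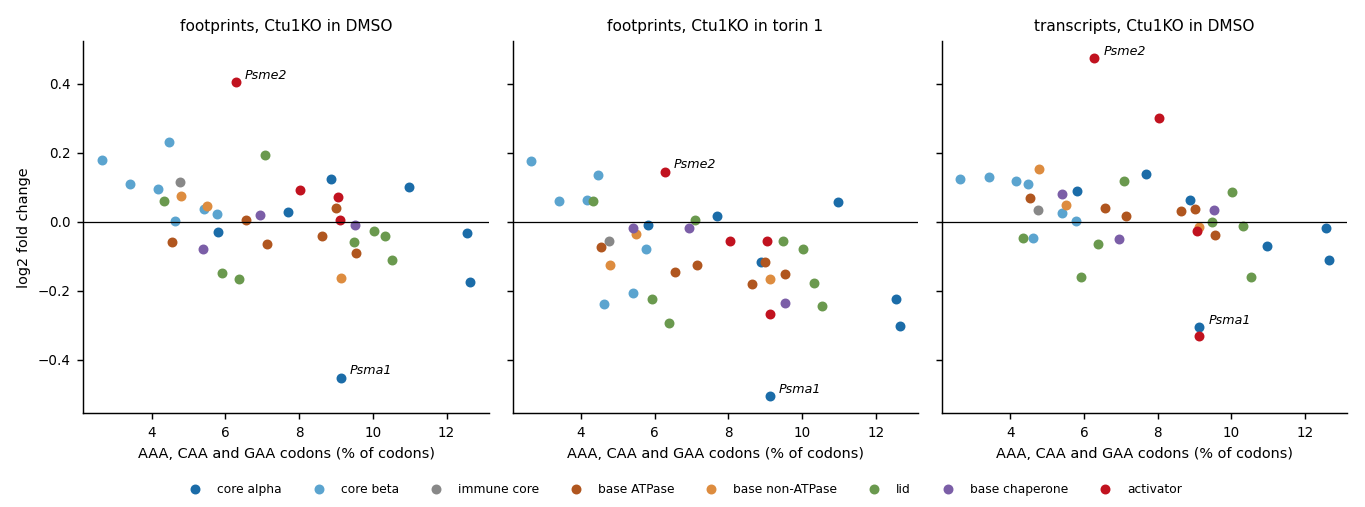
Log2 fold change of Ctu1 iKO against control cells (vertical axis) by the share of AAA, CAA and GAA codons (percent of codons, horizontal axis) for the 39 proteasome genes, as footprints in DMSO, footprints in torin 1 and transcripts in DMSO; colours are the classes. The light blue beta subunits lie at the left, mostly above 0, and most dark blue alpha subunits lie further right, except Psma5 (5.81%) beside the beta subunit Psmb7 (5.78%); Psma1 is lowest in both footprint panels.

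Promoters were searched for motifs of known regulators. For 33 of the 39 genes a promoter of 300 bases (250 before and 50 after the transcript start) was available from RefSeq (GRCm38.p6). The motif TGACNNNGC, the core of the antioxidant response element that is bound by NRF factors and tied to the recovery of proteasome synthesis after inhibition, was present on either strand in 6 of 33 genes (18.2%) and in 17.4% of 7829 genes. Those 6 were Psmb5, Psmb6, Psmc6, Psmd12, Psmd9 and Psme4. CCAAT, the letters bound by NF-Y, was present in 36.4% of the 33 and in 44.2% of all genes. A repeat of TTTC with a spacer of 2 bases, part of an interferon response element, was present in 4 of 33 genes (12.1%), Psmb3, Psmd4, Psmd9 and Psme1, and in 3.64% of all genes. The 3 motifs were searched separately on both strands, matches may overlap, and a match describes the letters only. Transcripts of Psme1, Psme2, Psme4 and Psma1 were called in Ctu1 iKO cells in DMSO by edgeR, with the limits given below. Of these, Psme2 matched none of the 3 motifs and Psma1 matched CCAAT alone. The immune subunit Psmb10 had no match either. The Psme1 motif lies at position 9 from the RefSeq transcript start, which differs from the GENCODE gene start given below. The matches of the catalytic subunits Psmb5 and Psmb6 and of the activators Psme4 and Psme1 are shown 5′ to 3′ on the strand of the match, with the motif in capitals.
Psmb5, chr14:54618024-54618052, minus strand: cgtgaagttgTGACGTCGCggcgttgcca
Psmb6, chr11:70525338-70525366, plus strand: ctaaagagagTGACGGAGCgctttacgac
Psme4, chr11:30771758-30771786, minus strand: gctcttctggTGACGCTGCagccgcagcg
Psme1, chr14:55578493-55578522, plus strand: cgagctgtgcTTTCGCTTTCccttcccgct

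Torin 1 changed the footprints of the proteasome genes little in control cells, as far as the test can resolve. In data simulated for this comparison, edgeR recovered 22 of 100 genes changed by 0.5 and 80 of 100 changed by 1 on the log2 scale. Without a block or batch term none of the 39 genes was called in control cells, while 7.24% of 9856 genes were (edgeR). Of the 39, 1 had an unadjusted p under 0.05 (edgeR), and DESeq2 called none, against 10.8% of all genes. All 39 changes lay within 0.25 on the log2 scale, as did 66.9% of all genes, and 20 of 39 were above 0. With scaling by library totals alone, 33 of 39 were above 0, since that scaling moved the median of all genes to 0.10. With the replicate number as a block, 3 genes fell, where 20.5% of all genes were called and 10.6% were called lower: Psme3 at -0.24, the base ubiquitin receptor Psmd4 at -0.20 and the ATPase Psmc5 at -0.17 (edgeR, adjusted p = 0.00810, 0.0386 and 0.0409).

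In Ctu1 iKO cells torin 1 lowered footprints of 1 of the 39 genes, Psmd4, by edgeR without a block or batch term. Over all 9855 genes, 8.0% were called in either direction and 4.52% were called lower. DESeq2 called Psmd4, Psma7 and Psme3, all of them lower, where it called 11.8% of all genes and 6.33% lower. The median change was -0.10 and 34 of 39 were below 0, but with library totals alone the median was -0.01 and 22 of 39 were below 0. All 6 ATPases and all 8 lid subunits were below 0 in the TMM fit, and with library totals 6 of 9 base and 6 of 8 lid subunits were. The difference between the responses of both genotypes (the interaction) was not called for any of the 39 genes, against 0.639% of 9857 genes (edgeR; 1 of 39 at an unadjusted p under 0.05; DESeq2 called none, against 1.11% of all genes). The interaction was below 0 in 33 of 39 genes, with either scaling, where 48.2% of all genes were, at a median of -0.10 against 0.01. Here and in the other counts of signs, the genes share their libraries, so their signs are not separate observations. The 4 activators had the lowest class median, -0.20. The 4 single comparisons share their groups in pairs and are not independent of each other.

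At the transcript level edgeR without a block called 1 of the 39 genes under torin 1, Psme3, in both genotypes. It was the only one of the 39 called in control cells, where 13.1% of 9617 genes were called and 7.4% were called lower, and in Ctu1 iKO cells, where 8.25% of 9619 were called and 4.52% were called lower. The other 38 genes lay within 0.25 on the log2 scale in both. Replicate numbers paired the transcript libraries in both genotypes, so the count depends on whether the fit uses this pairing. With the replicate block 4 genes rose and 6 fell in control cells, while 43.7% of all genes were called, 20.7% higher and 23.0% lower. Psmd8 rose by 0.16, Psmc6 by 0.14, Psme1 by 0.13 and Psmb1 by 0.12, and below 0 stood Psme3 at -0.58, Psmd7 at -0.25, Psmd3 at -0.20, Psmb5 at -0.15, Psmc4 at -0.14 and Psmc5 at -0.13. In Ctu1 iKO cells Psmd4 rose by 0.22 and Psme3 and Psmd7 stood at -0.69 and -0.23, while 35.1% of all genes were called.

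In DMSO, edgeR without a block or batch term called footprints of 1 of the 39 genes, Psme2, higher in Ctu1 iKO cells. Over all 10397 genes, 2.66% were called and 1.63% were called higher. In data simulated for this comparison, edgeR recovered 20 of 100 genes changed by 0.5 on the log2 scale. DESeq2, which called 6.73% of all genes, called Psma1 as well, and with the block Psma1 was called and Psme2 was not. Transcripts of 4 genes were called, of which 2 rose and 2 fell, against 5.12% of 10119 called, 3.32% higher and 1.8% lower. In torin 1 no footprint call fell on the 39 genes, against 4.83% of 9913 (edgeR; 5 of 39 at an unadjusted p under 0.05; DESeq2 called Psma1 and 8.49% of all genes), and no transcript call, against 1.31% of 9650 (5 of 39 at an unadjusted p under 0.05; DESeq2 called Psme1, Psme2 and Psme4 and 11.3% of all genes). In footprints 30 of 39 genes were below 0 in torin 1 and 17 of 39 in DMSO, and with library totals 26 and 13. Under the block, 6 genes fell in footprints in torin 1, where 14.4% of all genes were called and 7.35% were called lower. They were Psma1 at -0.53, Psmd13 at -0.32, Psma4 at -0.31, Psme4 at -0.27, and Psmb6 and Psmd12 at -0.24. In transcripts in torin 1 the block gave 7 calls in place of none, where 32.8% of all genes were called. Psme2 stood at 0.41, Psme1 at 0.30, Psmd4 at 0.28, Psma4 at -0.18, Psmd12 at -0.19, Psma1 at -0.37 and Psme4 at -0.46. In transcripts in DMSO it added Psmd7 and Psmd12, both at -0.16, to the 4 calls, where 28.0% of all genes were called.

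**Figure D3:**
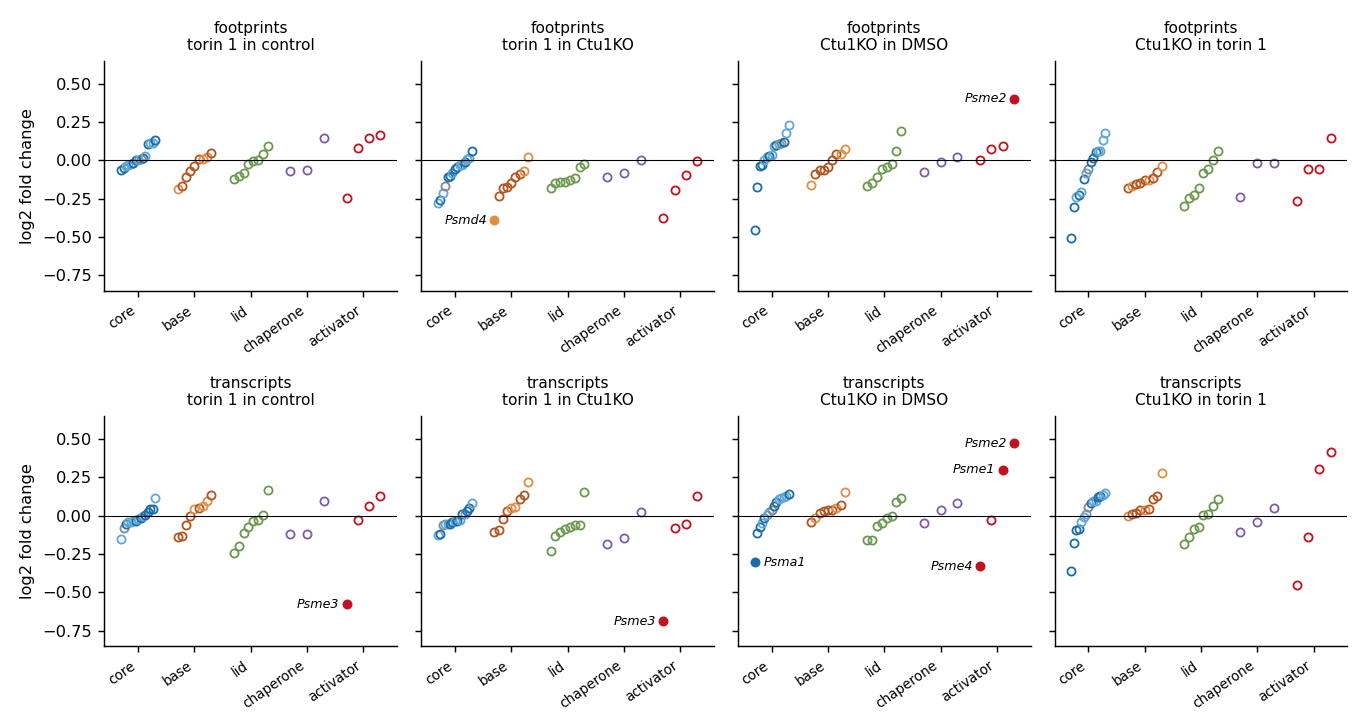
Log2 fold changes of the 39 proteasome genes by class in footprints (upper row) and transcripts (lower row, replicates 1 to 3) for torin 1 against DMSO and Ctu1 iKO against control; filled points passed the test (edgeR, adjusted p under 0.05) and are named. Most open points lie within 0.25 of 0, and the filled points are Psmd4, Psme2, Psme3, Psma1, Psme1 and Psme4.

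In the core, no catalytic subunit was called by edgeR without a block. Psmb5, the chymotrypsin-like subunit, had 146 to 196 footprint CPM in control cells in DMSO, with a median of 168, and 169, 169, 230, 187 and 203 CPM in the Ctu1 iKO samples. These ranges overlapped, and its changes of 0.18 (SE 0.11) in DMSO and 0.18 (SE 0.10) in torin 1 missed the threshold (edgeR, adjusted p = 0.422 and 0.354). Psmb6, the caspase-like subunit, had 105 to 128 CPM in control and 76.2 to 111 CPM in Ctu1 iKO cells in torin 1, ranges that overlapped, with a change of -0.24 (SE 0.10) (adjusted p = 0.210, edgeR), which passed with the block (adjusted p = 0.0481). Psmb7, the trypsin-like subunit, changed by -0.08 in that comparison (adjusted p = 0.777). Over the 4 footprint comparisons the changes ran from -0.03 to 0.18 for Psmb5, from -0.24 to 0.03 for Psmb6, from -0.08 to 0.11 for Psmb7 and from -0.17 to 0.11 for the immune subunit Psmb10. Over the 4 transcript comparisons they ran from -0.15 to 0.15, from -0.05 to -0.03, from -0.04 to 0.01 and from -0.08 to 0.05. The transcript change of Psmb5 under torin 1 in control cells, -0.15, passed with the block (adjusted p = 0.0214). In DMSO all 7 beta subunits were above 0 in Ctu1 iKO cells with either scaling, at a median of 0.10, whereas 3 of 7 alpha subunits were, or 5 of 7 with library totals.

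Psma1, an alpha subunit on chromosome 7 (114264606 to 114276118, minus strand, GRCm38), stood lowest of the 39 genes in Ctu1 iKO footprints in both media. Control cells in DMSO had 176, 195 and 233 CPM (lowest, median and highest), and Ctu1 iKO cells had 133, 117, 136, 176 and 171 CPM. Only Ctu1 iKO replicate 4 reached the control range, by less than 1 CPM. In torin 1 control cells had 147, 200 and 230 CPM and Ctu1 iKO cells 84.4, 144 and 171 CPM, so that these ranges overlapped. The footprint changes of -0.45 (SE 0.12) in DMSO and -0.51 (SE 0.17) in torin 1 missed the threshold (edgeR, adjusted p = 0.0655 and 0.114). They passed it in DESeq2 (adjusted p = 0.0123 and 0.0470), with the replicate block (adjusted p = 0.0382 in DMSO, where 3.5% of all genes were called, and 0.0039 in torin 1) and with a term for replicates 1 and 2 against 3 to 6 (adjusted p = 0.0118 and 0.00622). Within replicates 1 and 2 the changes were -0.52 and -0.72, and within replicates 3 to 6 they were -0.39 and -0.44.

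Psma1 transcripts were lower as well. Control cells in DMSO had 119, 113 and 117 CPM in replicates 1 to 3 and 115, 106 and 121 CPM in replicates 4 to 6, and Ctu1 iKO cells had 91.6, 92.8, 94.2, 89.7 and 98.2 CPM. In replicates 1 to 3 the groups did not overlap, which held for 31.7% of all genes, and Ctu1 iKO replicates 4 and 5 are among the libraries that went against their labels. The change over replicates 1 to 3 was -0.31 (SE 0.06, edgeR, adjusted p = 0.0321). Leaving out any 1 of these 6 libraries other than Ctu1 iKO replicate 3 took the adjusted p over the threshold, to at most 0.143, at changes of -0.32 to -0.29. In torin 1 the transcript change was -0.36 (adjusted p = 0.167), and -0.37 with the block (adjusted p = 0.0046), where 32.8% of all genes were called. Its translational efficiency stood at -0.24 in DMSO and was not called (adjusted p = 1). Psma4, the alpha subunit with the highest share of AAA, CAA and GAA codons, had 183, 254 and 289 footprint CPM in control cells in DMSO and 154, 139, 218, 276 and 271 CPM in Ctu1 iKO cells. Its lowest values in each of the 4 conditions came from replicates 1 and 2, and its change of -0.18 was not called (adjusted p = 0.686).

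In the base, Psmd4 is a ubiquitin receptor encoded on chromosome 3 (95032694 to 95042614, minus strand). It was the gene whose footprints were called in torin 1 in Ctu1 iKO cells by edgeR without a block or batch term. In Ctu1 iKO cells its footprints were 315, 327, 382, 395 and 346 CPM in DMSO and 237, 274 and 299 CPM (lowest, median and highest of 6) in torin 1. The groups did not overlap, which also held for 8.16% of all genes. The change was -0.39 (SE 0.10, edgeR, adjusted p = 0.0242). In control cells its footprints were 323, 331 and 360 CPM in DMSO and 236, 293 and 352 CPM in torin 1, a change of -0.19 (adjusted p = 0.243, or 0.0386 with the block), and the interaction of -0.20 was not called (adjusted p = 1). The call in Ctu1 iKO cells was lost without any 1 of Ctu1 iKO DMSO replicates 3, 4 or 5 or torin 1 replicate 5 (adjusted p at most 0.0672), with library totals alone, and within replicates 1 and 2, where the change was -0.37. It held within replicates 3 to 6 at -0.43 (adjusted p = 0.0234).

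Psmd4 transcripts did not fall with its footprints. In Ctu1 iKO cells they were 246, 259 and 270 CPM in DMSO and 275, 310 and 325 CPM in torin 1 (replicates 1 to 3), so the groups did not overlap, as was true for 30.4% of all genes in groups of this size. That change of 0.22 missed the threshold (edgeR, adjusted p = 0.191). The translational efficiency of Psmd4 stood at -0.59 in torin 1-treated Ctu1 iKO cells, the lowest of the 39 genes, and was called only with the replicate block (adjusted p = 0.0410, where 2.03% of all genes were called, against 0.169 without it) and in DESeq2. The scaffold subunits Psmd1 and Psmd2 changed by 0.02 and -0.07 in the same footprint comparison, and the 6 ATPases by -0.23 (Psmc5) to -0.09 (Psmc4).

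In the lid no gene was called by edgeR without a block or batch term. Psmd7, a structural partner of the deubiquitinase Psmd14, had 87.6, 92.7 and 97.1 footprint CPM in control cells in DMSO and 85.3, 83.3, 77.9, 83.4 and 86.9 CPM in Ctu1 iKO cells. These groups did not overlap, as was true for 4.62% of all genes, yet the change of -0.15 missed the threshold (edgeR, adjusted p = 0.316). Its transcripts were 127, 131 and 140 CPM in control DMSO libraries and 99.7, 112 and 125 CPM in torin 1 (replicates 1 to 3), and were called only with the block, at -0.25. Psmd13 had 274, 285 and 315 footprint CPM in control DMSO samples and 219, 249, 263, 293 and 267 CPM in Ctu1 iKO samples, a change of -0.17 (adjusted p = 0.330). With the block, footprints of Psmd13 and Psmd12 were called in Ctu1 iKO cells in torin 1 (adjusted p = 0.0447 and 0.0197, edgeR), and so were transcripts of Psmd3, Psmd7, Psmd8 and Psmd12 in at least 1 comparison. Psmd14 itself, which cuts ubiquitin from substrates, changed by -0.04 in Ctu1 iKO cells in DMSO and by 0.09 in torin 1-treated control cells.

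Of the chaperones of base assembly, none was called. Psmd5 had 32.8, 43.5 and 46.6 footprint CPM in control DMSO and 27.8, 41.0 and 46.9 CPM in control torin 1 libraries. Psmd9, which escorts an ATPase pair, changed by -0.06 and Psmd10, an ankyrin-repeat chaperone, by 0.14 in that comparison (edgeR, adjusted p = 0.868 and 0.462). Over the 4 footprint comparisons the changes ran from -0.11 to 0.02 for Psmd5, from -0.08 to 0.00 for Psmd9 and from -0.24 to 0.14 for Psmd10. Over the 4 transcript comparisons they ran from -0.18 to -0.05, from -0.15 to 0.08 and from -0.04 to 0.10.

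Over the 8 footprint and transcript comparisons, which share their groups, the 4 activators gave 6 calls in 32 tests by edgeR without a block, where 6.27% of the tests of all genes were called, and 12 with the block, where 23.2% were. Psme3, the nuclear activator encoded on chromosome 11 (101316213 to 101323537, plus strand), fell at the transcript level in torin 1. Control cells had 150, 155 and 157 CPM in DMSO and 93.6, 103 and 113 CPM in torin 1 (replicates 1 to 3), a change of -0.58 (SE 0.08, edgeR, adjusted p = 0.00553). The groups did not overlap, as was true for 33.1% of all genes, and the call held without each of the 6 libraries in turn. In Ctu1 iKO cells transcripts were 142, 149 and 156 CPM in DMSO and 83.8, 91.7 and 104 CPM in torin 1, a change of -0.69 (SE 0.10, adjusted p = 0.0111). There it was lost without Ctu1 iKO DMSO replicate 1 or 2 or torin 1 replicate 2 (adjusted p at most 0.0573). The response did not differ between genotypes by the test (interaction -0.10, adjusted p = 1), and the Ctu1 iKO itself changed Psme3 transcripts by -0.03 in DMSO (adjusted p = 0.832).

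Replicates 4 to 6 of Psme3 divided as the libraries did on the torin 1 axis. Replicates 4 and 5 labelled as Ctu1 iKO in DMSO had 98.0 and 107 CPM, in the range of torin 1 libraries, and those labelled control torin 1 replicates 5 and 6 had 163 and 166 CPM, above the highest DMSO value of replicates 1 to 3. With all replicates the changes were -0.33 in control (adjusted p = 0.123) and -0.28 in Ctu1 iKO cells (adjusted p = 0.969). Psme3 footprints, which do not include those RNA libraries, were 104, 120 and 136 CPM in control DMSO and 87.6, 104 and 109 CPM in control torin 1 samples. In Ctu1 iKO samples they were 106, 122, 134, 125 and 140 CPM in DMSO and 78.3, 98.1 and 112 CPM in torin 1. Both comparisons overlapped, and the changes of -0.24 and -0.37 missed the threshold (edgeR, adjusted p = 0.118 and 0.0725) but passed it with the block (adjusted p = 0.0081 and 0.0375, the latter where 9.97% of all genes were called). DESeq2 called the change in Ctu1 iKO cells (adjusted p = 0.0251).

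**Figure D4:**
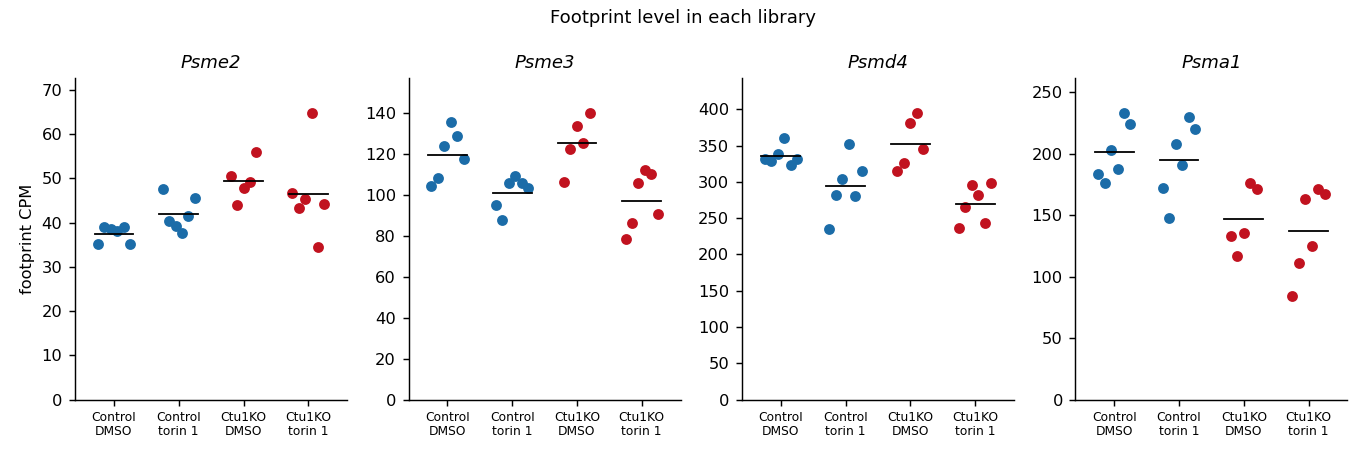
Footprint levels (CPM, axes from 0) of Psme2, Psme3, Psmd4 and Psma1 in each library of the 4 conditions; points are libraries, in order of replicate number, and bars are means of 5 or 6 libraries. In DMSO, Psme2 is higher in all Ctu1 iKO than in all control libraries, and Psma1 is lower in Ctu1 iKO cells in both media, with 1 library reaching the control range in DMSO.

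Transcripts of Psme1 and Psme2, the alpha and beta subunits of the interferon-responsive activator, were called higher in Ctu1 iKO cells in DMSO, though both calls were lost when any 1 of the 6 libraries was left out, and Psme1 footprints were not called in either medium. The genes lie 5.91 kb apart on chromosome 14, Psme1 at 55578123 to 55581529 on the plus strand and Psme2 at 55587441 to 55591113 on the minus strand. In DMSO, Psme1 transcripts were 61.2, 57.6 and 54.9 CPM in control and 72.5, 70.9 and 67.8 CPM in Ctu1 iKO cells (replicates 1 to 3). Psme2 transcripts were 37.7, 36.8 and 30.5 CPM in control and 45.6, 49.2 and 49.2 CPM in Ctu1 iKO cells. Neither pair of groups overlapped, which held for 31.7% of all genes in these small groups. Psme1 rose by 0.30 (SE 0.07, edgeR, adjusted p = 0.0479) and Psme2 by 0.47 (SE 0.09, adjusted p = 0.0360). With 1 of the 6 libraries left out, adjusted p-values were over the threshold (0.0508 to 0.198 for Psme1 and 0.0515 to 0.139 for Psme2), and the call of Psme1 was lost with library totals alone and with all replicates.

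In torin 1 the transcript changes of Psme1 and Psme2 were 0.30 and 0.42 and missed the threshold (edgeR, adjusted p = 0.118 and 0.0631). With the block they passed it in torin 1 (adjusted p = 0.0058 and 0.0028), as in DESeq2 (adjusted p = 0.0214 and 0.000300). Among replicates 4 to 6, control cells in DMSO reached 86.5 CPM of Psme1 and 48.6 CPM of Psme2, so over all replicates the DMSO groups overlapped.

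Psme2 was the 1 gene of the 39 whose footprints edgeR called in Ctu1 iKO against control cells, in fits of all replicates without a block or batch term. They were 35.3, 38.3 and 38.9 CPM in control and 50.6, 43.9, 47.9, 49.1 and 56.0 CPM in Ctu1 iKO samples in DMSO, with no overlap, which held for 4.62% of all genes. The change was 0.40 (SE 0.09, edgeR, adjusted p = 0.0303). The call was kept without control replicate 1 or without Ctu1 iKO replicate 2 and lost without any 1 of the other 9 libraries (adjusted p at most 0.0885), although the change stayed between 0.36 and 0.44. It passed in DESeq2 (adjusted p = 0.000785) and with a term for replicates 1 and 2 against 3 to 6 (adjusted p = 0.0116). With the block it was 0.38 (adjusted p = 0.0653), within replicates 1 and 2 it was 0.35 (adjusted p = 0.510) and within replicates 3 to 6 it was 0.44 (adjusted p = 0.0608). In torin 1 the change was 0.15 (adjusted p = 0.637). Psme1 footprints changed by 0.09 in DMSO and by -0.05 in torin 1 (adjusted p = 0.703 and 0.811). Under torin 1 neither gene was called in the fits without a block: footprints of Psme1 changed by 0.15 in control and 0.00 in Ctu1 iKO cells, those of Psme2 by 0.16 and -0.10, and transcripts of Psme2 by -0.02 and -0.08.

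Psme2 counts are uncertain because Psme2b, on chromosome 11, shares 715 of 720 coding bases with it. Psme2b held 23.4 to 29.9% of the joint footprints but 0.25 to 1.90% of the joint transcripts. For footprints the study's methods name STAR's GeneCounts option, which counts uniquely mapped reads. Whether the deposited footprint counts are that output, and how RNA reads that match both copies were assigned, is not given in the sources used here. Summed counts of both entries gave 0.41 for footprints (adjusted p = 0.0292) and 0.47 for transcripts (adjusted p = 0.0327) in edgeR.

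Psme4, the large activator encoded on chromosome 11 (30771726 to 30880361, plus strand), went the other way at the transcript level. In DMSO it had 91.4, 94.3 and 99.4 CPM in control and 76.5, 69.6 and 77.7 CPM in Ctu1 iKO cells (replicates 1 to 3), with no overlap, like 31.7% of all genes. It fell by 0.33 on the log2 scale (SE 0.07, edgeR, adjusted p = 0.0434), a call kept only without Ctu1 iKO replicate 3 and lost without any 1 of the other 5 libraries (adjusted p at most 0.168). In torin 1 the change was -0.45 (adjusted p = 0.135; with the block -0.46, adjusted p = 0.0036; in DESeq2 adjusted p = 0.0282). Its footprints changed by 0.01 in DMSO and by -0.27 in torin 1, neither of them called in the fit without a block, while the latter passed with it (adjusted p = 0.0345). Under torin 1 they changed by 0.08 in control and -0.19 in Ctu1 iKO cells.

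**Figure D5:**
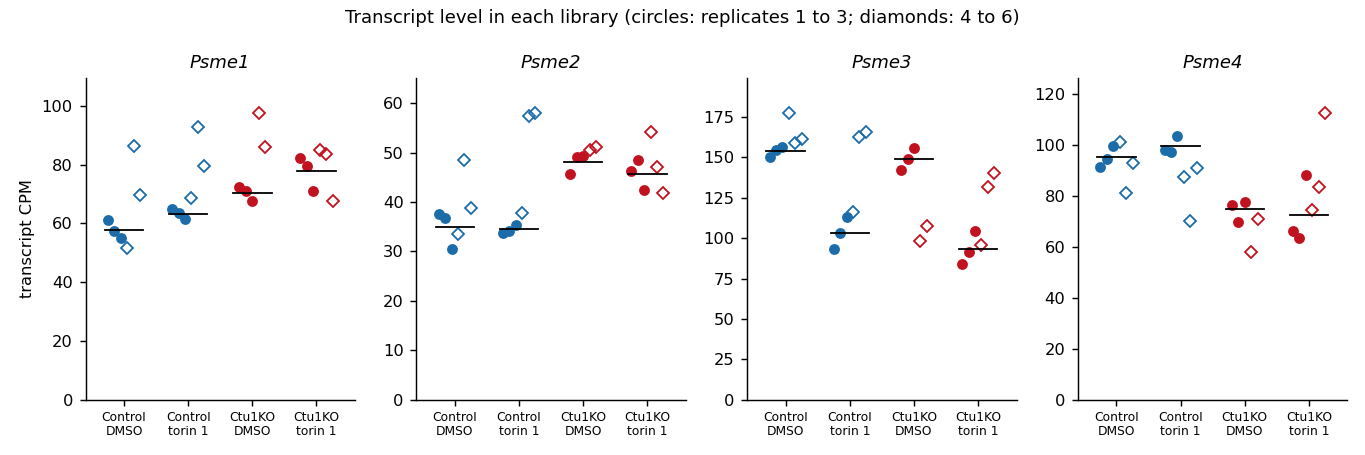
Transcript levels (CPM, axes from 0) of the 4 activators in each RNAseq library; circles are replicates 1 to 3, which entered the tests, diamonds are replicates 4 to 6, and bars are means of replicates 1 to 3. For Psme3 the circles fall from DMSO to torin 1, and the diamonds lie on either side; Psme1 and Psme2 circles are higher and Psme4 circles lower in Ctu1 iKO cells.

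Translational efficiency, fitted as an interaction of assay and condition over replicates 1 to 3, gave no call among the 39 genes in any of 4 comparisons. The test has little power: in data simulated for torin 1 in control cells over 9611 genes, it recovered 1 of 98 genes changed by 0.5 and 10 of 98 changed by 1 on the log2 scale. Over all genes it called 1.18% in control and 1.77% in Ctu1 iKO cells under torin 1, 0.0% for the Ctu1 iKO in DMSO and 0.114% in torin 1 (edgeR). At an unadjusted p under 0.05 there were 2, 4, 1 and 0 of the 39 genes in these comparisons, and DESeq2 called 1 gene, Psmd4, in the second and none in the others, where it called 2.36%, 3.29%, 0.208% and 1.06% of all genes. For the Ctu1 iKO in torin 1, 32 of 39 genes were below 0, where 48.6% of all genes were, and with library totals 24 of 39 were. Psmd13 was lowest in that comparison at -0.42.

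Genes that act with the proteasome were taken from a list of 31 assembly factors, adaptors, transcription regulators and ubiquitin genes, of which 29 were tested. In footprints under torin 1, 4 of the 29 genes were called in control and 5 in Ctu1 iKO cells, where 7.24% and 8.0% of all genes were. Rps27a, which encodes a ribosomal protein fused to ubiquitin, fell by 1.13 in control and 1.56 in Ctu1 iKO cells on the log2 scale (edgeR, adjusted p = 3.90e-07 and 9.10e-09). Adrm1, a ubiquitin receptor of the base that does not carry a Psm symbol, stood at -0.35 and -0.40 (adjusted p = 0.00808 and 0.0123). Zfand5, an activating adaptor, rose by 0.66 and 0.52 (adjusted p = 0.00379 and 0.0298). In translational efficiency 2 of the 29 genes were called under torin 1 in each genotype, where 1.18% and 1.77% of all genes were. Of these, Rps27a stood at -1.39 and -1.68 (edgeR, adjusted p = 8.49e-05 and 1.57e-05).

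At the transcript level under torin 1, where 13.1% and 8.25% of all genes were called, Ngly1, which deglycosylates the transcription factor NRF1, rose by 0.56 and 0.58, and Ddi2, the protease that cleaves it, stood at -0.50 and -0.48 in control and Ctu1 iKO cells (edgeR, adjusted p = 0.0168, 0.0433, 0.00378 and 0.0266). Psmg3, a chaperone of core assembly, stood at -0.39 in control cells (adjusted p = 0.0296). For the Ctu1 iKO in DMSO, edgeR called none of the 29 genes in footprints, against 2.66% of all genes, and none in transcripts, against 5.12%. At an unadjusted p under 0.05 there were 6 in each, and DESeq2 called 1 in footprints, against 6.73% of all genes, and 3 in transcripts, against 1530 of 10119 genes. In torin 1, where 4.83% of all genes were called in footprints, the footprints of Rps27a and of the proteasome adaptor Ecpas were lower in Ctu1 iKO cells, at -0.45 and -0.41 (adjusted p = 0.00358 and 0.0463).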

How the data were processed

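EPP2 footprints and RNA were analysed from 46 tables of raw counts per gene, which the authors deposited without normalization. For footprints the authors trimmed adapters (cutadapt 3.4), handled molecular identifiers (UMI-tools 1.1.1), removed rRNA reads and aligned with STAR 2.5.3a. The labels name mm10 and the methods a human build, while the symbols are murine. RNA libraries were stranded and paired-end. Repeated symbols, 23 entries in each table, were left out. Proteasome members, gene lists and tests were chosen with earlier results of these data known.

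Genes averaging 10 or more counts entered the fits (edgeR 4.0.16, R 4.3.3, TMM, quasi-likelihood test), 1 fit per comparison, with footprints of all replicates and transcripts of replicates 1 to 3. Alternatives were DESeq2 1.42.0, library totals, other filters, leaving out replicates, a term separating replicates 1 and 2 from 3 to 6, and a replicate block. Replicate numbers paired the transcript libraries (correlation of deviations 0.39 to 0.78 over every pair) and the footprints of torin 1 in control cells (0.40 to 0.64) and of the Ctu1 iKO in torin 1 (0.32 to 0.52), but not the other footprint comparisons (0.01 to 0.36 and -0.07 to 0.43). Coding sequences came from GENCODE M21 on GRCm38. Tests were checked on simulated data. Named were, by rule, the called genes, the catalytic and immune beta subunits, the activators, the base chaperones and the 3 highest and 3 lowest genes per codon. Psma4, Psmc5, Psmd1, Psmd2, Psmd7, Psmd13 and Psmd14 were named after their values were seen. Some genes of the wider pathway list are not reported here.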

Additional observations from a re-analysis of the deposited data

Results flagged for a closer look

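Of 156 groups of footprint libraries (39 genes in 4 conditions), 3 held a library far from the others of its group by Dixon's test, where chance gives about 1 in 20. Psmd2, a scaffold subunit of the base, had 416 CPM in control torin 1 replicate 1, below the 505 to 552 CPM of the other libraries. Psmb4, a beta subunit, had 146 CPM in Ctu1 iKO DMSO replicate 3, above 117 to 124 CPM. In the same library the lid subunit Psmd8 had 404 CPM, above 352 to 367 CPM. None of these genes was called in a footprint comparison.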

How the results depend on the processing

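Of 244 values of the number of proteasome genes called under an alternative, 196 stayed within 1.5 times the value reported and 48 did not. Among single genes 59 calls were gained, 48 were lost and none reversed. With the replicate block the numbers of the 39 genes called were 3 and 2 for footprints under torin 1 in control and Ctu1 iKO cells, 6 for footprints of the Ctu1 iKO in torin 1, 10 and 3 for transcripts under torin 1, 7 for transcripts of the Ctu1 iKO in torin 1 and 1 for translational efficiency under torin 1 in Ctu1 iKO cells, and the pairing changed no other number by this measure. With DESeq2 they were 3 for footprints under torin 1 in Ctu1 iKO cells, 2 and 1 for footprints of the Ctu1 iKO in DMSO and torin 1, 3 for transcripts of the Ctu1 iKO in torin 1 and 1 for translational efficiency under torin 1 in Ctu1 iKO cells. Library totals alone and replicates 1 and 2 alone each gave 0 for footprints under torin 1 in Ctu1 iKO cells. For footprints of the Ctu1 iKO in DMSO, replicates 1 and 2 alone gave 0 and replicates 3 to 6 alone gave 0, and in torin 1 replicates 3 to 6 alone gave 1. A term for replicates 1 and 2 gave 1 and 4 for footprints under torin 1 in control and Ctu1 iKO cells, and 3 and 3 for the Ctu1 iKO in DMSO and torin 1. All RNA replicates gave 0 for transcripts under torin 1 in Ctu1 iKO cells and 9 for the Ctu1 iKO in DMSO, and replicates 1 to 4 gave 0 for the former and 3 for the Ctu1 iKO in torin 1. The cause was not tested. Leaving out 1 replicate gave 0 to 1 for footprints under torin 1 in Ctu1 iKO cells and for the Ctu1 iKO in DMSO, 1 to 2 and 0 to 1 for transcripts under torin 1 in control and Ctu1 iKO cells, 0 to 2 and 0 to 3 for transcripts of the Ctu1 iKO in DMSO and torin 1, and 0 to 0 elsewhere. Summing Psme2 and Psme2b, chosen after seeing the data, moved no number. Counts over all genes moved too: for footprints under torin 1 in control cells 714 became 2019 with the block, and 287 higher and 427 lower became 602 and 327 with library totals. For transcripts of the Ctu1 iKO in DMSO 518 became 1530 with DESeq2, 2831 with the block and 2677 with all replicates. Library totals moved the median of all genes to 0.16 and 0.20 for translational efficiency under torin 1. Depth limits Ctu1 and Psmb10, which had under 10 CPM of footprints in most libraries.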
